A study of Mus musculus with 16 samples.

Results

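The megakaryocyte and platelet genes described here are 9 genes, Itga2b, Itgb3, Gp1bb, Gp9, Pf4, Ppbp, Clec1b, Gp6 and Treml1, measured on Affymetrix Mouse Genome 430 2.0 arrays. Every probe set that the platform annotation gives to one of them alone, under its current or an older symbol, was taken, which gave 11 of the 45101 probe sets and 9 of the 18194 genes named. Itgb3 and Gp1bb have more than 1 probe set, and 1 further probe set, annotated to Gp1bb together with the neighbouring Septin5, was left out. The arrays fall into 3 groups. Wild-type B cells (5 arrays) and Eμ-xbp-1s B cells (5 arrays) were B220+ splenic cells taken with magnetic beads from C57BL/6 littermates of 20 weeks of age, without and with the transgene, and Eμ-xbp-1s MM (6 arrays) were myeloma tumors of Eμ-xbp-1s mice, for which no cell sort and no age of the single animals are given. Myeloma arose in the colony at ages well past that of the B cell donors, so age and tumor cannot be told apart. The transgene carries the xbp-1s reading frame and, behind an IRES, a farnesylated eGFP under an immunoglobulin VH promoter with the Eμ enhancer, elements that are active in lymphoid cells and were seen to drive eGFP in the thymus as well as in spleen, lymph nodes and bone marrow. The B cell arrays came from separate mice. The labels do not give the founder line of a sample, and nothing says that the 6 tumors came from 6 mice, so in the comparisons of tumors the spread may in part be technical.

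Megakaryocytes are the large polyploid cells that shed platelets, and in the mouse they reside in the spleen as well as in the bone marrow. Platelets have no nucleus but carry messenger RNA from the megakaryocyte, and the spleen stores a large pool of them. Their surface is covered by the receptor for fibrinogen, a pair of integrin chains, and by the receptor for von Willebrand factor, a complex of glycoproteins, and their alpha granules hold chemokines. These proteins are best known from megakaryocytes and platelets, but not all are confined to them. Itgb3 is also expressed by osteoclasts, macrophages and endothelium, Pf4 by some macrophages, and Clec1b by some myeloid cells of mice. Whether B cells or plasma cells made any of them here was not tested.

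The promoters of the 3 members that passed the test in Eμ-xbp-1s B cells are shown first. Each is the RefSeq sequence of build GRCm38.p6 from 250 bases before the annotated start of the gene to 50 after it, in lower case, with capitals for the GATA words AGATAA or AGATAG or TGATAA or TGATAG on either strand, since GATA factors are the classical regulators of megakaryocyte genes. Ppbp lies at chr5:90768268-90768567, plus strand. Pf4 lies at chr5:90772185-90772484, plus strand, 3917 bases further on, and Clec1b lies at chr6:129397047-129397346, plus strand.
Ppbp: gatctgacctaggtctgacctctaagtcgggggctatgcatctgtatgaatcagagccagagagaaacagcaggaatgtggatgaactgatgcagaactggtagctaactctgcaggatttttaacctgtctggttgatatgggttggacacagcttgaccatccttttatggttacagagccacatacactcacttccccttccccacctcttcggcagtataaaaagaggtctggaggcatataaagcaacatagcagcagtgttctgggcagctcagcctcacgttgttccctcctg
Pf4: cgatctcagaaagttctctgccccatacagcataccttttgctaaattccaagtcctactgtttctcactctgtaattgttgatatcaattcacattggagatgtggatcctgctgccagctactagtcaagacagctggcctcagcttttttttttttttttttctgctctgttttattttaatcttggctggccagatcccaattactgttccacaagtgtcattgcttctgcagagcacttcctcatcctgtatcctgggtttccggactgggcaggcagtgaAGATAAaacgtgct
Clec1b: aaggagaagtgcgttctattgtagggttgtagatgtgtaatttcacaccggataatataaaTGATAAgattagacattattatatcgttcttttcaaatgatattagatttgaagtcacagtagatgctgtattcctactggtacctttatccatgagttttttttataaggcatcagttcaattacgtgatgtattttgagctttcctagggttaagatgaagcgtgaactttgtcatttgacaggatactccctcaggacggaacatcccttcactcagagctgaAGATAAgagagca
The Pf4 window holds AGATAA with its first base at position 37 after the start site. The Clec1b window holds TGATAA at position -189 and AGATAA at position 38. The Ppbp window holds none of the 4 words. Of the 8 members with an entry in the promoter table (Itgb3 has none), 4 held a GATA word in this window, Gp1bb and Gp6 being the other two, against 29.8% of all 32851 promoters. An ETS word (AGGAAG or CGGAAG or AGGAAA or CGGAAA, either strand) stood in 7 of the 8, all but Ppbp, against 64.7%, and 4 of the 8 held both kinds, against 19.1%. These are counts of letters in a short window and say nothing of binding.

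All values are intensities in dChip units on a linear scale, computed by the authors as perfect match minus mismatch signal. An array's median ran from 69.0 to 82.9, and values at or under 50 were treated as a floor with no order among them. Several arrays stood apart by markers of other cell types. MM replicates 4 and 5 carried high erythroid and neutrophil markers, with Alas2, the first enzyme of erythroid heme synthesis, at 6037 and 6599 against 16.3 to 92.0 on the other 4 tumors, and S100a8, a calcium-binding protein of neutrophils, at 12588 and 12292 against 31.2 to 444. Cd79a, a chain of the B cell receptor, was at 422 and 62.8 there against 2202 to 3346 on the other tumors. Among Eμ-xbp-1s B cells, replicate 3 was high for Alas2 (4045 against 329 to 559 on the other 4) and replicate 5 for Camp, a neutrophil granule peptide (3167 against 272 to 609). Replicates 1 and 2 stood apart from replicates 3 to 5 in both B cell groups, and Eμ-xbp-1s replicates 1 and 2 were the closest pair of all (r = 0.99 across 18304 probe sets). The split was less clean among Eμ-xbp-1s B cells, where replicate 5 was closer to replicate 2 (r = 0.899) than to replicate 3 (r = 0.889). In RNA of bead-selected cells or of tumors, fewer cells of a type and less RNA per cell cannot be told apart.

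In Eμ-xbp-1s B cells, Ppbp, Pf4 and Clec1b rose over wild-type B cells, Ppbp by at least 11.9-fold, Pf4 by 5.75-fold and Clec1b by 3.34-fold. These 3 were the members past an adjusted p of 0.01 among the 8 member probe sets that could be tested, and none was lower. Over all 20596 probe sets tested in this comparison 3.23% passed, 2.75% as higher and 0.481% as lower. Ppbp and Gp9 could be tested only through the Eμ-xbp-1s arrays, since no wild-type array exceeded 100 for either.

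**Figure D1:**
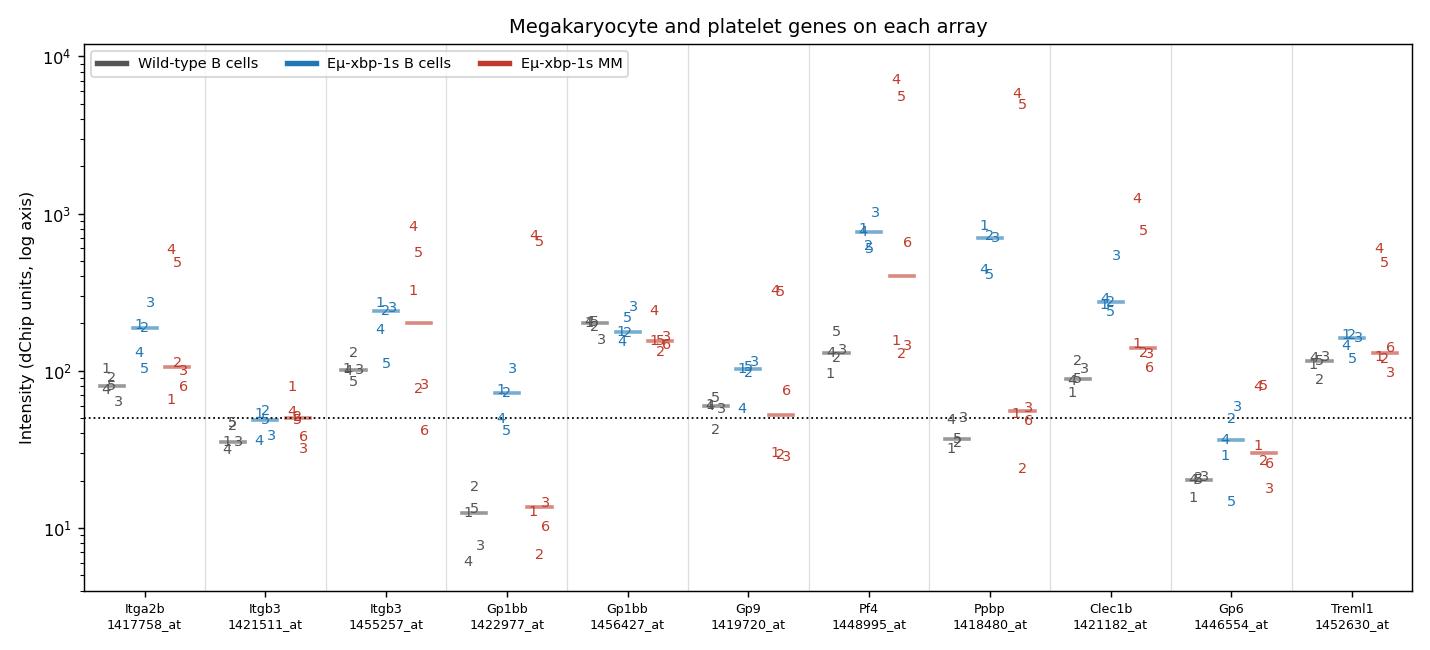
Intensity (dChip units, log axis) of the 11 member probe sets on each array, with the digit giving the replicate number, the bar the group median and the dotted line the floor of 50. Pf4, Ppbp and Clec1b separate Eμ-xbp-1s from wild-type B cells. MM replicates 4 and 5 lie above the other tumors on 9 of the 11 probe sets. They do so on 11.3% of all probe sets tested in MM against Eμ-xbp-1s B cells.

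The alpha granule chemokines were the members that differed most. Ppbp encodes the precursor of a neutrophil-attracting chemokine, CXCL7, that platelets release on activation. Its probe set (1418480_at) read 31.9, 34.9, 49.97, 48.4 and 36.7 on wild-type replicates 1 to 5, all at or under the floor, and 835, 718, 700.2, 437 and 406 on Eμ-xbp-1s replicates 1 to 5. The groups did not overlap, and Eμ-xbp-1s replicates 1 to 3 lay above replicates 4 and 5. The log2 fold change against the floor was at least 3.57 (SE 0.20, n = 5 and 5, limma adjusted p = 4.04e-07). Pf4 encodes platelet factor 4, CXCL4, a heparin-binding chemokine of the same granules whose gene neighbours Ppbp. Its probe set (1448995_at) read 95.8, 121, 136, 129 and 178 on wild-type arrays and 801, 621, 1007, 766 and 595 on Eμ-xbp-1s arrays, again without overlap. Its mean was 132 ± 29.8 (SD, n = 5) against 758 ± 165 (SD, n = 5), a log2 fold change of 2.52 (SE 0.19, limma adjusted p = 4.76e-06).

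The signalling receptors were mixed. Clec1b encodes CLEC-2, the platelet receptor for podoplanin, which signals through a tyrosine motif in its tail. It (1421182_at) read 71.8, 116, 103, 85.5 and 88.2 in wild-type B cells and 263, 275, 541, 288 and 238 in Eμ-xbp-1s B cells, with replicate 3 well above the rest and no overlap. The log2 fold change was 1.74 (SE 0.22, limma adjusted p = 0.000381). Gp6 encodes the collagen receptor glycoprotein VI, which pairs with the Fc receptor gamma chain. It (1446554_at) lay at or under the floor on every wild-type array (15.6 to 21.0) and on 4 of 5 Eμ-xbp-1s arrays (28.6, 49.3, 58.6, 36.5 and 14.7), so it could not be tested. Treml1 encodes TLT-1, an alpha granule membrane protein that reaches the surface on activation. It (1452630_at) read 109, 87.8, 122, 121 and 115 in wild-type B cells and 169.6, 169, 162, 144 and 119.6 in Eμ-xbp-1s B cells, where replicate 5 fell within the wild-type range. Its log2 fold change was 0.46 (SE 0.14, limma adjusted p = 0.0858) and did not pass.

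The chains of the fibrinogen receptor did not pass either. Itga2b encodes integrin alpha-IIb, CD41, the chain that defines the megakaryocyte lineage. It (1417758_at) read 103, 89.7, 62.9, 75.3 and 79.9 in wild-type B cells and 196, 188, 271, 129.6 and 103 in Eμ-xbp-1s B cells, so that the lowest Eμ-xbp-1s array met the highest wild-type array. The log2 fold change was 1.05 (SE 0.24, limma adjusted p = 0.023). Itgb3 encodes integrin beta-3, its partner. Its brighter probe set (1455257_at) read 102, 129.6, 102, 100.5 and 85.1 in wild-type B cells against 272, 239, 249, 181 and 110.3 in Eμ-xbp-1s B cells, with a log2 fold change of 0.96 (SE 0.23, limma adjusted p = 0.0276). Replicate 5 was the lowest Eμ-xbp-1s array for both chains, and its removal was the 1 of 10 single removals after which either chain passed. Over the 10 removals the limma adjusted p ran from 0.00725 to 0.0638 for Itga2b and from 0.00152 to 0.0778 for Itgb3. With the replicate number as a block Itgb3 passed (limma adjusted p = 0.00763). The other Itgb3 probe set (1421511_at) stayed between 31.4 and 78.5 on all 16 arrays, exceeded 100 on none, and was not tested in any comparison.

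The von Willebrand factor receptor gave probe sets that disagreed. Gp1bb encodes its beta chain. One probe set (1422977_at) read 12.5, 18.2, 7.69, 6.09 and 13.2 in wild-type B cells and 75.2, 72.6, 103, 49.4 and 41.4 in Eμ-xbp-1s B cells. Only 1 array exceeded 100, and it was not tested. All wild-type arrays and Eμ-xbp-1s replicates 4 and 5 lay under the floor. Of the 8 member probe sets tested, 3 (those of Ppbp, Pf4 and Clec1b) had every Eμ-xbp-1s array above every wild-type array, as had 5.58% of all probe sets tested. Of these 3, Ppbp could be tested only through the Eμ-xbp-1s arrays. The other Gp1bb probe set (1456427_at) read 201, 191, 158, 206 and 204 against 177, 173, 254, 153 and 218, a log2 fold change of 0.00 (SE 0.16, limma adjusted p = 0.993). It stayed between 131 and 254 on all 16 arrays, also where the first probe set ran from 6.09 to 723. Gp9 encodes glycoprotein IX, which holds the complex together. It (1419720_at) read 60.3, 41.9, 57.5, 60.0 and 67.2 in wild-type B cells and 103, 96.3, 113, 56.9 and 106 in Eμ-xbp-1s B cells, where replicate 4 lay inside the wild-type range. The log2 fold change was 0.65 (SE 0.18, limma adjusted p = 0.0562), and over 10 single removals it ran from 0.00327, without Eμ-xbp-1s replicate 4, to 0.13, with 1 of the 10 past the threshold.

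Within the Eμ-xbp-1s B cells the members kept a partly shared order. Replicate 3 was the highest array on 7 of the 11 probe sets, replicate 1 on 3 and replicate 2 on 1, while on the 8 probe sets with at most 1 of these arrays at or under the floor replicate 5 was the lowest on 6 and replicate 4 on 2. Ppbp did not follow replicate 3, at 700.2 there against 835 on replicate 1. Without replicate 3, the array high for Alas2, the log2 fold changes of Ppbp, Pf4 and Clec1b were 3.51, 2.41 and 1.54. In replicates 3 to 5 alone they were 3.32, 2.40 and 1.86. These arrays were picked after the values were seen, and Alas2 moves with the members, so the values are a description with no test. The part of erythroid cells in the rise was not tested. With Eμ-xbp-1s replicates 1 and 2, the closest pair, averaged into 1, all 3 genes passed. In a single fit of all 3 groups, whose spread includes that of the tumors, none of the 3 passed (limma adjusted p = 0.186 for Ppbp, 0.253 for Pf4 and 0.169 for Clec1b).

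Markers of several other cell types were higher in the same comparison, where 2.75% of all probe sets tested passed as higher. All 4 T cell genes rose, with Cd3d, which is part of the T cell receptor complex, at 57.8 to 81.1 in wild-type and 968 to 1496 in Eμ-xbp-1s B cells. Of the 6 neutrophil genes tested 4 rose, and the summed intensity of the 7 on the array was 675 to 1466 on wild-type arrays and 8966 to 27512 on Eμ-xbp-1s B cell arrays. Of the 5 erythroid genes tested Alas2 rose, and the sum of the 7 ran from 200.1 to 455 and from 895 to 9375. Of the 4 macrophage genes Csf1r, the receptor of macrophage growth factor, passed, and their sum was 1467 to 2270 on wild-type and 3415 to 5146 on Eμ-xbp-1s arrays. Of the 2 stem and progenitor genes tested Kit, a receptor of progenitors and mast cells, rose. No plasma cell gene (3 tested), endothelial gene (3 tested) or stromal gene (1 tested) passed. The 3 B cell genes summed to 19132 to 21505 in wild-type and 8670.0 to 15719 in Eμ-xbp-1s B cells, and none of them passed. The summed intensity of the 9 members, each by its brightest probe set, ran from 791 to 874 and from 1911 to 3357. No defining marker of these cell types was listed at 0, and the part of other cells in the members' rise was not tested.

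**Figure D2:**
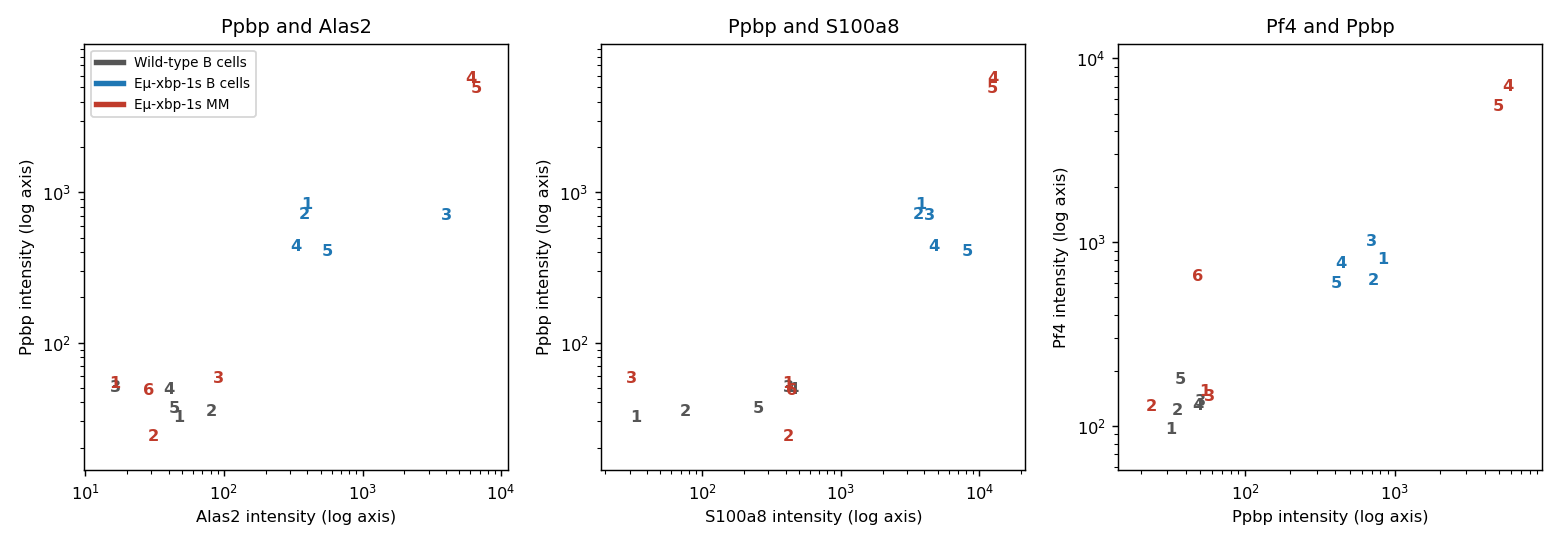
Intensity on each array (both axes log, dChip units) of Ppbp against Alas2, of Ppbp against S100a8 and of Pf4 against Ppbp, with the digit giving the replicate number. MM replicates 4 and 5 hold the highest values of all 4 genes, Eμ-xbp-1s replicate 3 has Alas2 at 4045 with Ppbp at 700.2, and MM replicate 6 has Pf4 at 653 with Ppbp at 48.2.

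In the tumors the members formed no common level. No member passed the test against Eμ-xbp-1s B cells (0 of 9 probe sets tested, where 3.19% of 22194 passed, 1.28% as higher and 1.91% as lower) or against wild-type B cells (0 of 6 tested, where 9.59% of 21894 passed, 3.95% as higher and 5.65% as lower), and MM replicates 4 and 5 held far higher values than the other tumors. At an unadjusted p under 0.05 the first comparison had 0 members, where 26.7% of all probe sets passed, and the second had 2 of 6, Pf4 and Clec1b, where 35.3% passed. Both comparisons of the tumors, and each with the comparison of B cells, share arrays, so their values are given side by side and were not compared as independent.

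Ppbp read 53.4, 23.6, 58.0, 5726, 4931 and 48.2 on MM replicates 1 to 6. Replicates 4 and 5 lay far above every Eμ-xbp-1s B cell array, and the other 4 were near or under the floor like wild-type B cells. Its log2 fold change against Eμ-xbp-1s B cells was -1.28 (SE 1.33, limma adjusted p = 0.576), and against wild-type B cells it was not tested, since only 2 of 11 arrays exceeded 100. Pf4 read 154, 128, 145, 7039, 5487 and 653. Replicate 6 reached the Eμ-xbp-1s range for Pf4, while its Ppbp was 48.2 and its Clec1b 104. The log2 fold change of Pf4 was -0.21 (SE 1.04, limma adjusted p = 0.92) against Eμ-xbp-1s and 2.32 (SE 1.04, limma adjusted p = 0.134) against wild-type B cells. Of the 4 macrophage genes, Marco, a scavenger receptor, was highest on replicate 6 (423 against 124 to 194 on the other tumors), while Csf1r (977 against 2277 to 4956) and the lysosomal Cd68 (227 against 285 to 1011) were lowest there. The sum of the 4 was also lowest, at 2012 against 3259 to 7333. The relation of macrophages to its Pf4 was not tested.

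Clec1b read 149, 129, 127, 1234, 778 and 104. Its log2 fold change was -0.29 (SE 0.63, limma adjusted p = 0.803) against Eμ-xbp-1s and 1.45 (SE 0.61, limma adjusted p = 0.114) against wild-type B cells. Gp6 was above the floor only on replicates 4 and 5, at 78.7 and 80.5, and was not tested. Treml1 read 122, 118, 96.3, 596, 487 and 139, with log2 fold changes of 0.37 (SE 0.46, limma adjusted p = 0.649) and 0.83 (SE 0.46, limma adjusted p = 0.223).

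Itga2b read 64.9, 113, 99.1, 589.5, 487 and 78.7 on MM replicates 1 to 6, and its log2 fold change was -0.08 (SE 0.58, limma adjusted p = 0.95) against Eμ-xbp-1s B cells and 0.97 (SE 0.55, limma adjusted p = 0.232) against wild-type B cells. Itgb3 (1455257_at) read 320.3, 76.3, 80.7, 826, 558 and 41.7. Replicate 1 lay above every Eμ-xbp-1s B cell array for Itgb3, while its Itga2b was 64.9. The log2 fold changes of Itgb3 were -0.08 (SE 0.69, limma adjusted p = 0.952) and 0.88 (SE 0.67, limma adjusted p = 0.378). Gp1bb (1422977_at) read 12.7, 6.77, 14.4, 723, 655 and 10.1. With values under 50 set to 50 its log2 fold change against Eμ-xbp-1s B cells was 0.83 (SE 0.77, limma adjusted p = 0.529). Gp1bb (1456427_at) read 156, 131, 165, 240.0, 154 and 146, and its log2 fold change was -0.24 in both comparisons (limma adjusted p = 0.464 and 0.341). Gp9 read 30.2, 29.1, 28.5, 322, 319 and 74.0, with a log2 fold change of 0.10 (SE 0.54, limma adjusted p = 0.926) against Eμ-xbp-1s B cells.

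**Figure D3:**
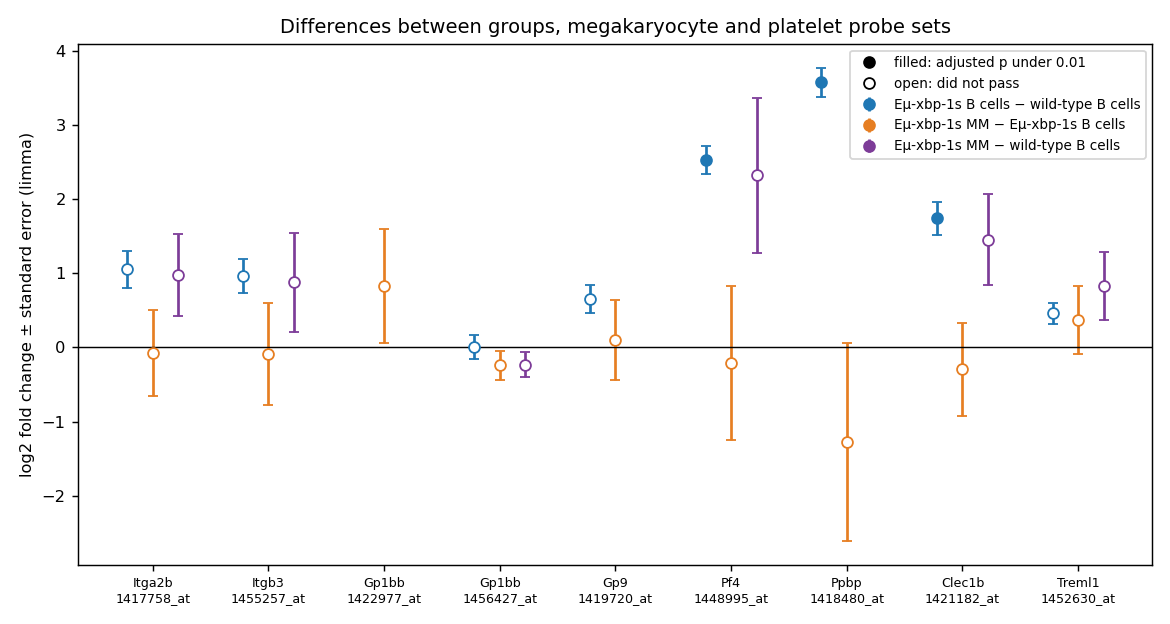
log2 fold change with its standard error (limma) of the member probe sets in each of the 3 comparisons in which they were tested, with filled points for an adjusted p under 0.01. The 3 filled points are Pf4, Ppbp and Clec1b in Eμ-xbp-1s against wild-type B cells (2.52, at least 3.57 and 1.74), and the standard errors of these 3 genes were 0.61 or more in the comparisons of MM.

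MM replicates 4 and 5 lay above all 4 other tumors on 9 of the 11 probe sets, the exceptions being the dim Itgb3 and the bright Gp1bb probe set. Over the 22194 probe sets tested in MM against Eμ-xbp-1s B cells, both lay above on 11.3% and both below on 20.2%. The same arrays were the high ones for erythroid and neutrophil markers, and the sum of the erythroid genes ran from 268 to 32227 over the tumors, that of the neutrophil genes from 573 to 60551 and that of the 9 members from 775 to 16651. On the other 4 tumors Ppbp lay between 23.6 and 58.0, while the Eμ-xbp-1s B cell arrays read 406 to 835. Without replicates 4 and 5, the log2 fold change against Eμ-xbp-1s B cells was -3.50 for Ppbp, where 2 of the 4 remaining tumors were under the floor, -1.84 for Pf4, -1.28 for Clec1b and -0.95 for Itga2b. Both arrays were set aside after the values were seen, for markers that move with the members, and Ppbp then entered the fit only through the Eμ-xbp-1s arrays, so these values are a description with no test. Against wild-type B cells the log2 fold change was then 0.68 for Pf4 and 0.46 for Clec1b.

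A wider list of 56 megakaryocyte and platelet genes, of which 52 have a probe set of their own, was read in the same fits. In Eμ-xbp-1s against wild-type B cells 34 of the 52 were tested, and 9 were higher and 0 lower (limma; at an unadjusted p under 0.05, Lyl1 alone was lower, with a log2 fold change of -0.40, where 9.47% of all probe sets were lower). Over all probe sets tested, 2.75% passed as higher and 0.481% as lower. The median log2 fold change of the 34 genes was 0.30, against -0.05 over all probe sets tested. No wild-type array exceeded 100 for 5 of the 34 (F13a1, Alox12, Tubb1, Nfe2 and Meis1), which could be tested only through the Eμ-xbp-1s arrays, and 4 of the 9 calls were among them. The other 29 had 5 calls and a median of 0.18.

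The genes that rose have several roles. Tubb1, the beta-tubulin of the platelet's marginal band, read 56.8, 44.3, 61.9, 60.5 and 47.0 in wild-type and 276, 248, 589.6, 293 and 212 in Eμ-xbp-1s B cells, without overlap. Its log2 fold change was 2.44 (SE 0.24, limma adjusted p = 4.55e-05). Alox12, the lipoxygenase that makes 12-HETE in platelets, read at most 32.3 in wild-type and 129.6, 108, 159, 103 and 75.1 in Eμ-xbp-1s B cells, a rise of at least 2.23-fold (limma adjusted p = 0.00159). Nfe2, a transcription factor of megakaryocytes and erythroid cells, read at most 23.1 against 93.3, 74.2, 257, 188 and 197, a rise of at least 2.91-fold (limma adjusted p = 0.00784). With values under 100 set to 100, neither Alox12 nor Nfe2 passed.

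The other 6 are known from further cell types too. F13a1, a clotting factor chain of platelets and macrophages, rose by at least 5.46-fold and Fcer1g, the Fc receptor gamma chain that Gp6 pairs with and that myeloid cells use, by 3.23-fold (1391 ± 349, SD, n = 5, against 446 ± 160, SD, n = 5). Cd9, a tetraspanin of the platelet membrane, rose by 2.85-fold and Nbeal2, needed for alpha granules, by 1.76-fold on its brighter probe set, while the other did not pass. Clu, a secreted chaperone of platelet granules and many tissues, rose by 2.99-fold on its brightest probe set, and 3 of its 4 probe sets passed. Rgs18, a regulator of G protein signalling, was 1.62-fold on both of its probe sets, of which only the dimmer one passed (limma adjusted p = 0.00783). Rgs18 was counted by its brighter probe set and so is not among these 6. Lat, an adaptor of platelets and T cells, rose by 9.84-fold, beside the rise of the T cell genes. Of the other transcription factors, Gata1 had a log2 fold change of 0.70 (limma adjusted p = 0.0162) and its cofactor Zfpm1 one of 0.85 (limma adjusted p = 0.0325), and neither passed. Gp5, a further chain of the von Willebrand factor receptor, had one of 0.02 (limma adjusted p = 0.96).

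**Figure D4:**
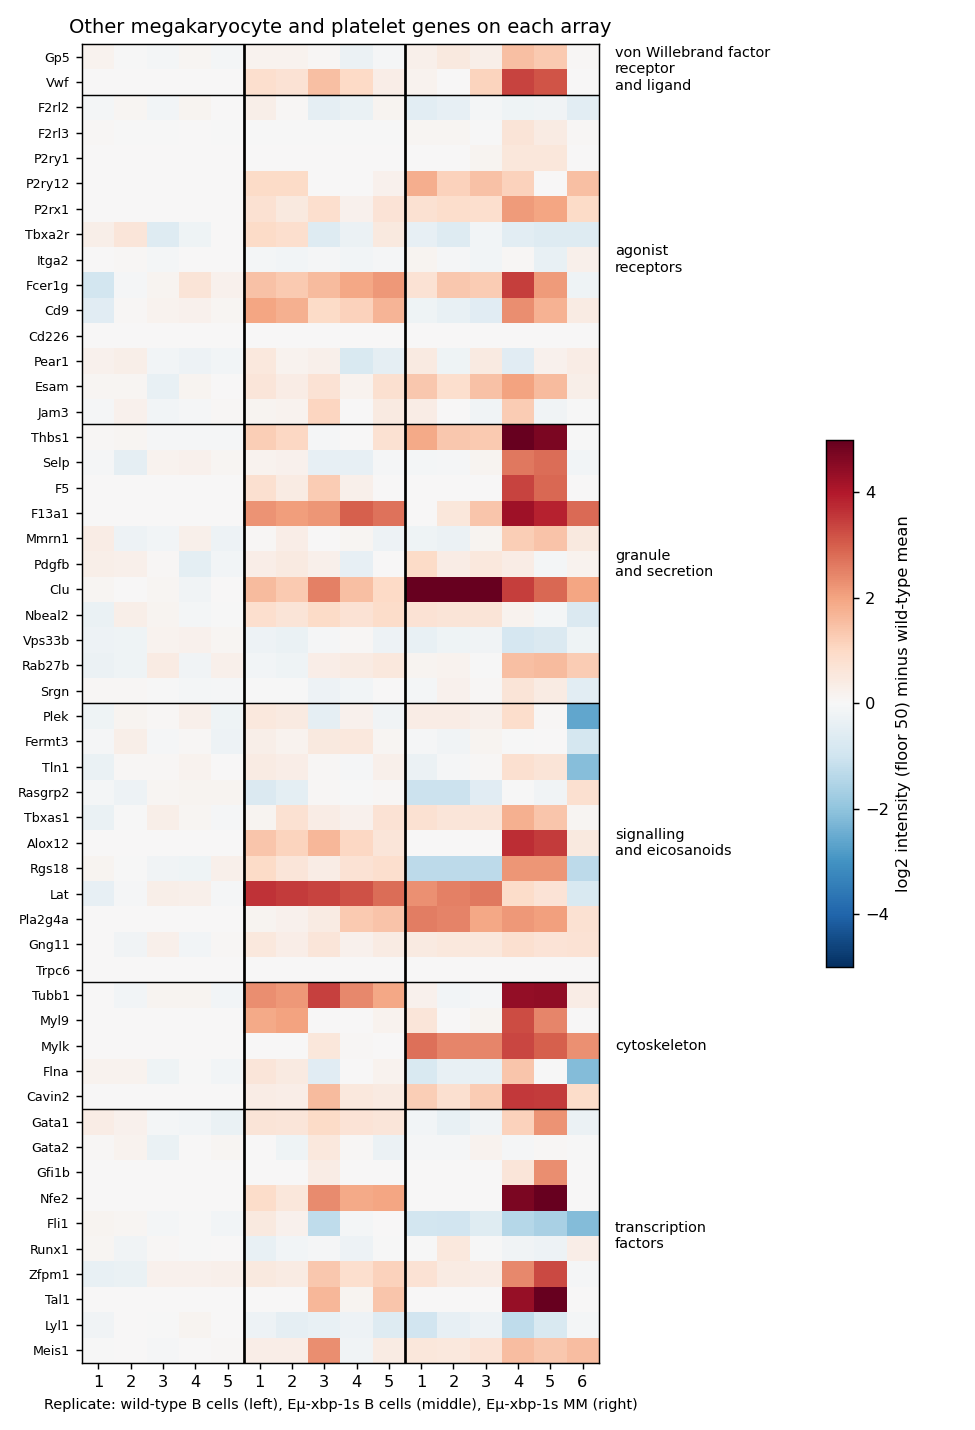
log2 intensity (values under 50 set to 50) minus the wild-type mean for the 52 genes of the wider list on each array, grouped by role, red higher and blue lower, with the color scale ending at 5 in both directions. Tubb1, Alox12, F13a1, Nfe2 and Lat are higher on all 5 Eμ-xbp-1s B cell arrays, and MM replicates 4 and 5 differ from the other tumors over most role groups.

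In MM against Eμ-xbp-1s B cells 45 of the 52 genes were tested, and 1 was higher and 0 lower. Over all probe sets tested, 1.28% passed as higher and 1.91% as lower. At a limma unadjusted p under 0.05 in either direction 13 of the genes passed, as did 26.7% of all probe sets. The median log2 fold change was 0.15 against 0.00 over all probe sets. For 4 of the 45 genes (P2ry12, Tbxa2r, Mmrn1 and Mylk) the test was possible only through the arrays of 1 group. The 1 call was among them. The other 41 had 0 calls and a median of 0.12. The gene that rose was Mylk, the myosin light chain kinase of smooth muscle and platelets. It read 339, 272, 269, 511, 392 and 244 on MM replicates 1 to 6 and 31.9 to 74.4 in Eμ-xbp-1s B cells, a rise of at least 5.98-fold (limma adjusted p = 5.83e-05). Mylk could be tested only through the tumors. Unlike the members it was high on all 6 tumors, and the stromal genes Bgn, Dcn and Col3a1 rose in the same comparison. Its relation to them was not tested.

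In MM against wild-type B cells 38 were tested, 7 were higher and 1 lower, with a median log2 fold change of 0.43 against -0.03. Over all probe sets tested, 3.95% passed as higher and 5.65% as lower. The 7 were Mylk (at least 6.53-fold), P2ry12, the ADP receptor (at least 2.27-fold), Esam, an adhesion molecule of endothelium and platelets (2.39-fold), Clu (18.8-fold), Pla2g4a, the phospholipase that frees arachidonic acid (at least 3.98-fold), Gng11, a G protein gamma chain (1.53-fold), and Meis1, a homeobox factor of stem cells and megakaryocytes (2.06-fold). Fli1, an ETS factor of megakaryocytes that B cells also express, was the gene that fell, from 833 ± 71.2 (SD, n = 5) to 365 ± 134 (SD, n = 6), a log2 fold change of -1.28 (limma adjusted p = 0.00405). Rasgrp2, which activates the GTPase Rap1 in platelets, passed as lower on 3 of its 4 probe sets (log2 fold changes of -1.92, -1.62 and -0.70) but not on the brightest (-0.35), by which it was counted. For 10 of the 38 genes no array of 1 of the groups exceeded 100, and 4 of the 8 calls were among them. Without single arrays the count of these genes fell to 3 (wild-type replicate 1, 2, 4 or 5), 4 (wild-type replicate 3 or MM replicate 4) or 5 (MM replicate 5). Over the 11 single removals P2ry12 failed in 10, Esam in 9, Meis1 and Gng11 in 7 each and Fli1 in 5. Mylk, Clu and Pla2g4a passed in all of them.

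On 29 of the 52 genes of the wider list MM replicates 4 and 5 both lay above the other 4 tumors, and on 2 both lay below. Of the probe sets tested in MM against Eμ-xbp-1s B cells, 11.3% had both above and 20.2% had both below. Tubb1 read 63.7, 49.7, 53.6, 1163, 1197 and 72.3 over the tumors and Alox12 read 23.7, 27.3, 21.3, 639.9, 566 and 71.0. Gp5 was at 436 and 376 on replicates 4 and 5 against 158 to 214 on the others, and F5, coagulation factor V, at 515 and 367 against 3.98 to 9.83. Selp, the P-selectin of platelet granules and endothelium, was at 526 and 586 against 78.1 to 94.0, and Vwf, von Willebrand factor, at 516 and 439 against 20.7 to 108. Thbs1, thrombospondin of the alpha granules and of stroma, was at 1891 and 1363 against 51.0 to 195. Tal1, a factor of stem cells, megakaryocytes and erythroid cells, was at 1030.3 and 1694 against 17.9 to 23.9, and Klf1, an erythroid factor, at 1009 and 2919 against 19.1 to 50.4. Other genes of the list were not raised there, with P2ry12 at 111 and 47.0 against 110.0 to 178 and Clu at 1060 and 698 against 370 to 5434. These values are a description of single arrays with no test.

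The pattern of the members over all 16 arrays, taken as the mean log2 intensity of the 8 members that were tested in any comparison, was set against 11057 named genes. Alox12 (r = 0.98), Tubb1 (r = 0.98), Alas2 (r = 0.96) and Nfe2 (r = 0.94) of the lists were among the 10 most alike. Outside the lists the 10 most alike were Parvb (r = 0.96), Mxd1 (r = 0.96), Emilin2 (r = 0.95), 1810058I24Rik (r = 0.94), Mmp8 (r = 0.94), Tmcc2 (r = 0.94), Rhd (r = 0.94), Retnla (r = 0.94), Mpp1 (r = 0.93) and Fosl2 (r = 0.93). Parvb encodes a parvin that binds integrin-linked kinase, Mmp8 the neutrophil collagenase and Rhd a blood group protein of red cells. Over the 14 arrays other than MM replicates 4 and 5, r was 0.97 for Alox12, 0.98 for Tubb1 and 0.93 for both Parvb and Alas2. It fell to 0.83 for Nfe2 of the lists and, outside the lists, to 0.87 for Mxd1, 0.81 for Tmcc2 and 0.77 for Fosl2. The 16 points share the groups and the arrays that stand apart, so r is a description. Between pairs of members, r over the 16 arrays ran from 0.17 for the flat Gp1bb probe set with Treml1 to 0.96 for Ppbp with Clec1b.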

How the data were processed

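RNA of 16 samples was hybridised to Affymetrix arrays. The deposited values are linear intensities of single probe sets, which the authors obtained with dChip as model-based expression after normalizing the arrays to the one of median overall brightness. Arrays have no read depth, and their number limits the precision. Of 45101 probe sets, 34958 are annotated to 1 gene (34754 matched to current symbols by gene identifier), 932 to several and 9211 to none listed, and 64 controls were left out. Values under 50 were set to 50 (the reference for every fold given as at least), and a probe set had to exceed 100 on over 20% of the arrays in a comparison. The log2 values were then fitted by limma (version 3.58.1, R 4.3.3) with lmFit and eBayes, separately for each pair of groups (no covariate, Benjamini-Hochberg over all probe sets tested, threshold 0.01). The study's methods name SAM, in whose place limma stands. A gene of a list is shown by its probe set of highest mean. The test was tested on simulated data. Promoters came from RefSeq (GRCm38.p6). Tables and figures were made with matplotlib 3.10.9, numpy 2.4.6 and pandas 2.3.3 under Python 3.11.15.

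The members and the gene lists were chosen with earlier results of these data known. The genes named are the 9 members, up to 6 called genes per role group of the wider list, defining cell markers, and the 10 genes outside the lists with the most similar pattern. The values of Selp, F5, Vwf, Thbs1, Tal1, P2ry12, Clu, Rasgrp2 and Rgs18 were chosen after they were seen. Same-numbered wild-type and Eμ-xbp-1s B cell arrays deviated together from their group means (r = 0.51, 0.53, 0.22, 0.18 and 0.51), all over 0.1. The numbers were therefore fitted as a block in an alternative, not in the main fit, and no label says what they mark. The best match of a wild-type array bore its own number only for replicates 1 and 5. Tumor and Eμ-xbp-1s B cell arrays numbered 1 and 2 gave r = 0.44 and 0.40, so such values do not establish pairs. The alternatives were other floors, no filter on low values, a filter on the standard deviation, quantile and median scaling, a variance trend, a single fit, the replicate block, a looser threshold, each array left out in turn, and, added after seeing the data, MM replicates 4 and 5 left out and the sets of B cell replicates.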

Additional observations from a re-analysis of the deposited data

Results flagged for a closer look

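Each group of arrays on each of the 11 member probe sets was examined for 1 array far from the rest, 33 groups in all, and 3 had one. A nominal rate of about 1 in 20 would hold only for independent, normally distributed values. The groups share the same 16 arrays and some values lie under the floor, so the count is a description with no test. Clec1b (1421182_at) stood at 541 on Eμ-xbp-1s B cell replicate 3, with the nearest array of its group at 288. Gp6 (1446554_at) stood at 15.6 on wild-type replicate 1 against 20.1 on the nearest, all under the floor of 50. Gp1bb (1456427_at) stood at 240.0 on MM replicate 4 against 165 on the nearest. The high pair of MM replicates 4 and 5 on the other probe sets is not found in this way, since each lies near the other.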

How the results depend on the processing

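In Eμ-xbp-1s against wild-type B cells, 3 member probe sets passed, but 0 in a single fit of all 3 groups, 5 at an adjusted p under 0.05, 5 with the sets of B cell replicates in the model and 7 in replicates 1 and 2 only. With 1 array left out 3 to 5 passed. The replicate block added Itgb3. The count of other platelet genes was 9, and 3 with no filter on low values, 1 in the single fit and 7 to 9 with 1 array left out. Over all probe sets 666 passed, and 431 with no filter, 217 in the single fit, 1410 at an adjusted p under 0.05, 1357 with the sets in the model, 1529 in replicates 1 and 2 only and 457 to 757 with 1 array left out.

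In MM against Eμ-xbp-1s B cells 0 members passed. The other platelet genes went from 1 to 4 in the single fit, 5 at an adjusted p under 0.05 and 2 with the replicate block. With 1 array left out their count was 1 to 3 (3 without MM replicate 6). Without MM replicates 4 and 5, 1 member (lower) and 5 other platelet genes (1 higher, 4 lower) were past the threshold. Both arrays were set aside after the values were seen, for markers that move with the members, so these counts are no test. All probe sets went from 708 to 240 with no filter, 1945 in the single fit, 2352 at an adjusted p under 0.05, 367 with the replicate block, and 234 to 1023 with 1 array left out. In MM against wild-type B cells 0 members passed in every alternative that was run (0 with 1 array left out). The other platelet genes went from 8 to 5 at a floor of 100, 4 with no filter and 3 to 8 with 1 array left out, and all probe sets from 2100 to 1161 with no filter, 4640 at an adjusted p under 0.05 and 1071 to 2610 with 1 array left out.

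Signs that turned were those of log2 fold changes that did not pass. In Eμ-xbp-1s against wild-type B cells, Gp1bb (1456427_at) became -0.00094 with median scaling and -0.16 in replicates 1 and 2 only, and ran from -0.096 to 0.085 with 1 array left out. In MM against Eμ-xbp-1s B cells, Gp9 became -0.29 and Gp1bb (1422977_at) -0.21 at a floor of 16, Itga2b 0.089 and Itgb3 0.20 at a floor of 100, and Itga2b 0.13 and Itgb3 0.30 with the replicate block. Without MM replicates 4 and 5, Gp9 became -0.75 and Treml1 -0.36, and Itgb3 became -0.046 against wild-type B cells. With 1 array left out Itga2b ran from -0.45 to 0.18, Gp9 from -0.24 to 0.30, Pf4 from -0.90 to 0.26 and Itgb3 from -0.51 to 0.30. Apart from the single fit, Ppbp, Pf4 and Clec1b passed in Eμ-xbp-1s against wild-type B cells in every alternative not added after seeing the data. Their limma adjusted p was at most 0.00198 over the arrays left out in turn. Of the other platelet genes in that comparison, Nfe2 failed without any of 8 arrays and Nbeal2 without any of 4. The causes were not tested. The floor limits what can be said of Ppbp, Gp1bb, Gp6, Gp9 and Itgb3, whose lowest arrays lie under it.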
